A study of Homo sapiens with 42 samples.

Results

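The genes described here encode 6 factors that act on the mRNAs of the replication-dependent histones: SLBP, LSM10, LSM11, CASP8AP2, NPAT and ERI1. They were chosen by name for that role, matched by Ensembl identifier, and make up 6 of the 58243 gene IDs in the count tables of both RNA fractions. All of them passed the filter on low counts in both fractions. The cells were K562, an established human line from chronic myeloid leukemia that depends on the BCR-ABL1 kinase. They were left untreated (CTRL) or received 1 µM imatinib (IM), which inhibits BCR-ABL1, for 1, 6 or 18 h, 5 µM JTE-607 (JTE), a compound directed at the 3′ end nuclease CPSF3 (CPSF73), for 1, 6 or 18 h, or 110 mM KCl, a hyperosmotic shock, for 1 or 3 h. Poly(A) mRNA of whole cells was sequenced in 27 libraries of 9 groups, and nuclear RNA depleted of ribosomal RNA in 15 libraries of 5 groups (CTRL, IM 1h, IM 18h, JTE 1h and KCl 1h), with 3 biological replicates per group. All treatments were timed to end together with the untreated cells, so each fraction has 1 set of CTRL libraries that every comparison with CTRL shares. Every group comes from this 1 line.

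Total counts ran from 16439848 to 22505595 in mRNA, except in KCl 1h replicates 2 and 3 (62953314 and 42474454), and from 16175394 to 25103205 in nuclear RNA. Of the markers that define K562 cells, GATA1 stood at 166 ± 25.0, TAL1 at 154 ± 12.5, TFRC at 1332 ± 237 and HBG2 at 1251 ± 373 CPM (counts scaled to library size) in mRNA CTRL (SD, n = 3). The lymphoid and monocyte markers CD3E, MS4A1 and CD14 lay between 0 and 0.613 CPM there, whereas the epithelial marker EPCAM, listed as absent, was present at 91.1 CPM. Some erythroid markers moved with the longest imatinib treatment, though GATA1 stood at 144 ± 11.1 CPM in IM 18h. HBE1, which encodes the embryonic epsilon globin, stood at 1121 ± 350.4 CPM in CTRL and at 4234 ± 1134 CPM in IM 18h (SD, n = 3), and the part of that shift in the results below was not tested.

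Replication-dependent histone mRNAs are the only known metazoan mRNAs that end in a conserved stem-loop in place of a poly(A) tail. The stem-loop binding protein SLBP holds the stem-loop, while the U7 small nuclear ribonucleoprotein pairs with a sequence downstream of the cleavage site. In the U7 particle LSM10 and LSM11 take the place of the spliceosomal proteins SmD1 and SmD2 in the Sm ring, and the extended N terminus of LSM11 binds FLASH, the product of CASP8AP2. Together they recruit a cleavage complex in which CPSF3 is the nuclease, the same enzyme that cuts polyadenylated transcripts. NPAT, a substrate of cyclin E and CDK2, drives histone gene transcription at the histone locus body, and ERI1 is a 3′ exonuclease that trims the stem-loop and takes part in histone mRNA decay.

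The RNA sites of LSM10, LSM11, SLBP and ERI1 are shown because they tie these factors to their targets. In the U7 snRNA gene RNU7-1 (hg38, chromosome 12, positions 6943816 to 6943878, plus strand) the capitals mark the Sm site, found with the motif AATTTGNCTAG at bases 21 to 31, on which the ring with LSM10 and LSM11 assembles. In the 3 histone genes that follow, the capitals mark the 16 bases of the stem-loop that SLBP and ERI1 bind, with 5 bases on either side.
RNU7-1: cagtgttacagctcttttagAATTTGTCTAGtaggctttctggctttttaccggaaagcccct
H2AC8: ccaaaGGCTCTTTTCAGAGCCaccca
H2BC9: ccaaaGGCTCTTTTCAGAGCCactta
H2BC26: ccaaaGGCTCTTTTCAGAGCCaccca

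The stem-loops were read from hg38 on the plus strand at chromosome 6, positions 26217412 to 26217437 (H2AC8), chromosome 6, positions 26252050 to 26252075 (H2BC9), and chromosome 1, positions 228458533 to 228458558 (H2BC26). All 3 genes carry the same 16 letters. The histone stem-loop was searched on the coding strand in the 100 bases after the stop codon. It was present there in 54 of 54 replication-dependent histone genes tested in either fraction and in 18 of 19870 other protein-coding genes (0.0906%). These others include any histone genes that were not tested, and how many of the 18 are histone genes was not counted. U7 snRNA itself had 0 counts in all 27 mRNA and all 15 nuclear libraries, which allows a counted level of up to 0.183 CPM in mRNA and 0.186 CPM in nuclear RNA (3 counts per library, counting error only). The RNA is short and has no poly(A) tail, and whether these libraries could capture it was not tested.

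The genes lie on 6 chromosomes (hg38, positions from the count tables). SLBP (ENSG00000163950) is on chromosome 4, 1692800 to 1712555, and LSM10 (ENSG00000181817) on chromosome 1, 36391238 to 36397892, both on the minus strand. LSM11 (ENSG00000155858) is on chromosome 5, 157743695 to 157760709, and CASP8AP2 (ENSG00000118412) on chromosome 6, 89829894 to 89874436, both on the plus strand. NPAT (ENSG00000149308) is on chromosome 11, 108157215 to 108222642, minus strand, and ERI1 (ENSG00000104626) on chromosome 8, 9002147 to 9116746, plus strand. They fall into 2 classes by merged exon length, the short LSM10 (1496 bases) and SLBP (2026 bases) and the long ERI1 (6385), LSM11 (6584), NPAT (7534) and CASP8AP2 (8171 bases). NPAT shares 143 exon bases (1.90% of its own) with ATM, its divergent neighbor on the opposite strand, and counting used no strand option. No other factor shared exon bases with another gene.

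Per exon length, SLBP was the most abundant factor and LSM11 the least abundant in CTRL cells. In mRNA the levels in RPKM (CPM divided by exon length in kilobases) were 76.9 ± 5.48 for SLBP, 20.3 ± 1.41 for LSM10, 11.6 ± 0.613 for ERI1, 7.55 ± 1.45 for NPAT, 6.46 ± 0.695 for CASP8AP2 and 4.10 ± 0.632 for LSM11 (SD, n = 3). The order was the same in nuclear RNA, from 60.9 ± 3.77 RPKM for SLBP to 4.06 ± 0.198 RPKM for LSM11, with LSM10 at 29.6 ± 2.94 RPKM. Of the U7 ring partners, LSM10 was the higher one per exon length in both fractions.

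**Figure D1:**
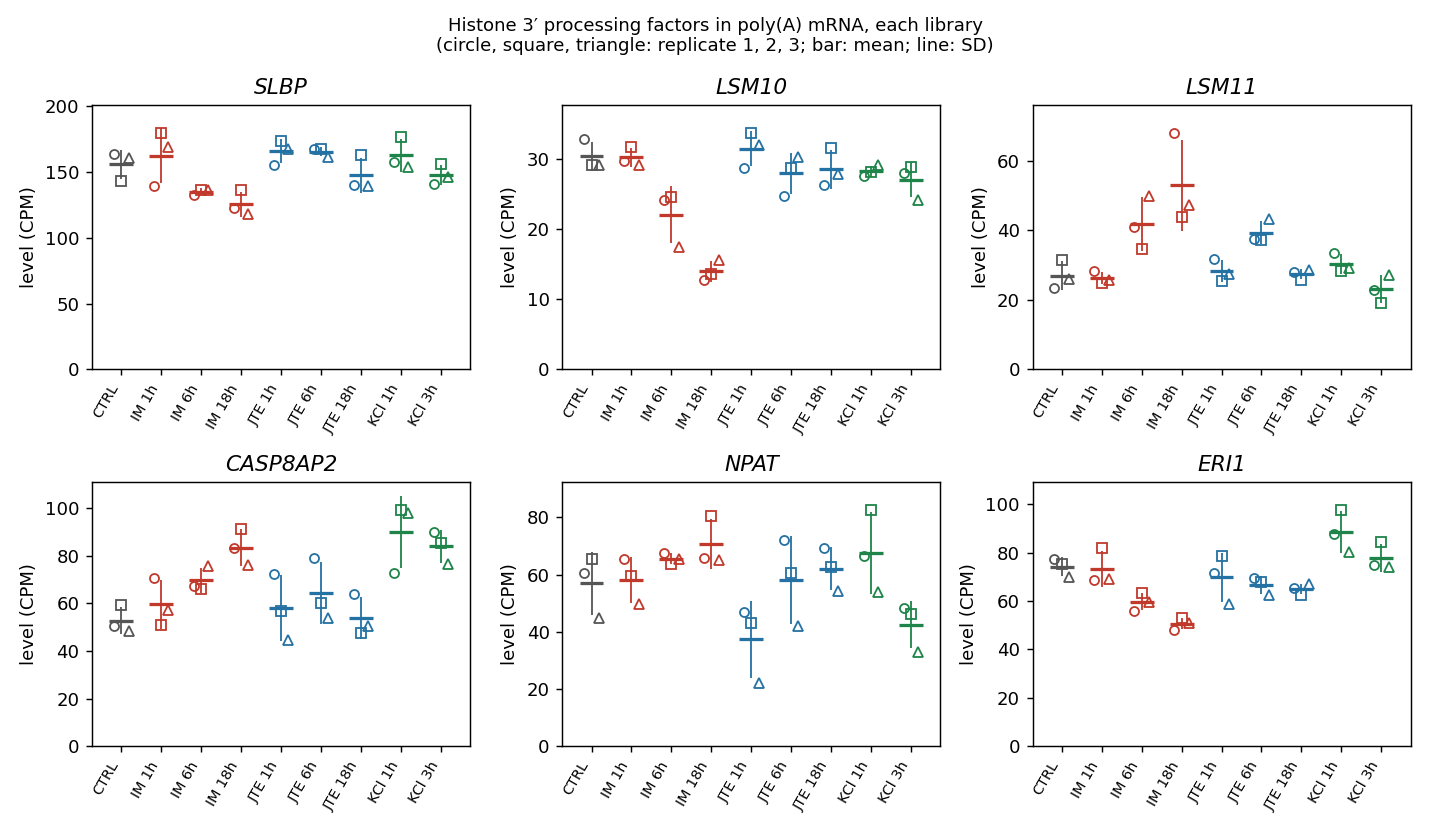
Levels of the 6 factors in poly(A) mRNA (y axis, TMM-scaled CPM, from 0) in the 9 groups (x axis), with 1 symbol per library (circle, square and triangle for replicates 1, 2 and 3), the mean as a bar and the SD as a line. LSM10 falls and LSM11 rises over the imatinib time course (mean 14.0 and 53.0 CPM at 18 h). The CASP8AP2 mean is highest in KCl 1h (90.1 CPM), and the libraries of KCl 3h (84.0 CPM) and IM 18h (83.5 CPM) overlap with it.

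Across the 9 mRNA groups the factors differed in how far their mean levels spread. The highest group mean exceeded the lowest by 1.32-fold for SLBP, 1.71-fold for CASP8AP2, 1.75-fold for ERI1, 1.89-fold for NPAT, 2.25-fold for LSM10 and 2.30-fold for LSM11. Neighbors in the order of group means had overlapping libraries in 7 of 8 pairs for each of these genes, and in 8 of 8 for NPAT. That count was not made over all genes, so nothing particular to these factors is read from it. The lowest mean was that of IM 18h for SLBP, LSM10 and ERI1, of CTRL for CASP8AP2, of JTE 1h for NPAT and of KCl 3h for LSM11.

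The largest changes were those of the U7 ring partners at 18 h of imatinib, and they went in opposite directions. A gene was called at an adjusted p under 0.05 (edgeR, Benjamini-Hochberg adjustment over all genes tested) if its log2 fold change also lay above 0.6 or below -0.6. At IM 18h, 3 of the 6 factors were called in mRNA, LSM10 lower and LSM11 and CASP8AP2 higher, where 30.5% of all genes tested were called. In nuclear RNA 3 were called as well, LSM10 and ERI1 lower and LSM11 higher, beside 32.6% of all genes. With 6 genes no more is read from these shares. By the adjusted p alone 5 of the 6 factors passed in mRNA (43.8% of all genes) and 4 in nuclear RNA (45.6%), in the fit without a replicate term. The replicate numbers pair the nuclear libraries. With that block CASP8AP2 (edgeR adjusted p 3.17e-06) and NPAT (edgeR adjusted p 0.0139) passed there too. The share of all genes that passed by the adjusted p alone with the block was not counted. The libraries of IM 18h and CTRL did not overlap for 5 factors in mRNA (55.5% of all genes) and for 4 in nuclear RNA (53.6%). In bulk RNA, fewer cells of a type and less RNA per cell cannot be told apart.

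LSM10 mRNA stood at 32.8, 29.2 and 29.1 CPM in the CTRL libraries and at 12.7, 13.6 and 15.6 CPM in IM 18h. The nuclear values were 40.3, 49.0 and 43.6 CPM in CTRL and 15.1, 20.03 and 18.3 CPM in IM 18h. In both fractions every IM 18h library lay below every CTRL library. The log2 fold change was -1.12 in mRNA (SE 0.13, edgeR adjusted p 3.53e-07) and -1.32 in nuclear RNA (SE 0.12, edgeR adjusted p 2.51e-08).

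LSM11 mRNA stood at 23.4, 31.5 and 26.1 CPM in CTRL and at 68.0, 43.9 and 47.2 CPM in IM 18h, and nuclear LSM11 at 27.6, 27.4 and 25.3 CPM in CTRL and at 68.1, 46.1 and 46.2 CPM in IM 18h. Again the groups did not overlap, and replicate 1 was the highest IM 18h library in both fractions. The log2 fold change was 0.97 in mRNA (SE 0.16, edgeR adjusted p 3.79e-05) and 1.00 in nuclear RNA (SE 0.13, edgeR adjusted p 2.54e-06).

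The 2 genes moved apart over time. At IM 1h neither was called, with log2 fold changes of -0.01 for LSM10 and -0.04 for LSM11, and none of the 6 factors was called (0.0166% of all genes in mRNA; 0.0456% in nuclear RNA). In IM 6h mRNA, LSM11 was the only factor called, beside 9.94% of all genes. By the adjusted p alone 3 factors passed there (16% of all genes), and the libraries of 5 factors did not overlap with those of CTRL (32.4% of all genes). It stood at 41.1, 34.6 and 49.8 CPM, above every CTRL library (log2 fold change 0.63, SE 0.16, edgeR adjusted p 0.00871). That call was lost on removal of replicate 1 (0.54) or 3 (0.57) of CTRL, and on removal of replicate 3 of IM 6h (0.46, edgeR adjusted p 0.085).

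LSM10 in IM 6h stood at 24.2, 24.5 and 17.4 CPM, below every CTRL library, with a log2 fold change of -0.46 that stayed under the fold threshold (SE 0.12, edgeR adjusted p 0.0128). Between 1 and 6 h, 1 factor was called (LSM11, log2 fold change 0.67, edgeR adjusted p 0.00637) beside 8.2% of all genes, and LSM10 differed by -0.45 (edgeR adjusted p 0.016, as did 13% of all genes at an adjusted p under 0.05). Between 6 and 18 h, LSM10 was the factor called (log2 fold change -0.66, edgeR adjusted p 0.00298) beside 4.41% of all genes. The 6 to 18 h call of LSM10 was lost without IM 6h replicate 1 (-0.59) or 2 (-0.57) or IM 18h replicate 1 (-0.59), and the 1 to 6 h call of LSM11 without IM 6h replicate 3 (0.51).

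**Figure D2:**
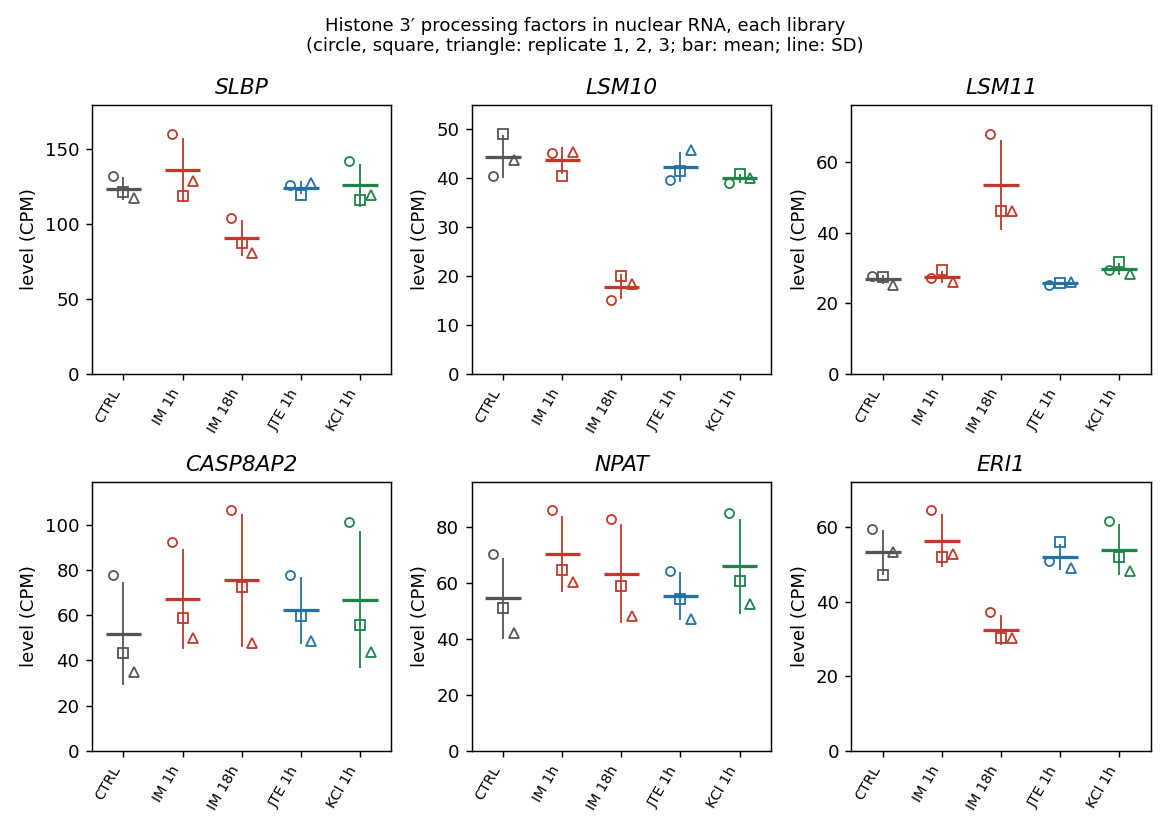
Levels of the 6 factors in nuclear RNA (y axis, TMM-scaled CPM, from 0) in the 5 groups (x axis), with 1 symbol per library (circle, square and triangle for replicates 1, 2 and 3), the mean as a bar and the SD as a line. SLBP, LSM10, ERI1 and LSM11 separate IM 18h from the other groups, while for CASP8AP2 and NPAT replicate 1 is the highest library of all 5 groups.

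SLBP and ERI1, the proteins that bind the stem-loop, showed smaller differences. SLBP mRNA stood at 164, 143 and 161 CPM in CTRL and at 122, 136 and 118 CPM in IM 18h, without overlap. The log2 fold change was -0.31 (SE 0.09, edgeR adjusted p 0.0092), below the fold threshold, and it was lost with an offset for exon length (-0.07, edgeR adjusted p 0.512). Nuclear SLBP stood at 132, 121 and 117 CPM in CTRL and at 104, 87.1 and 80.9 CPM in IM 18h (log2 fold change -0.44, SE 0.12, edgeR adjusted p 0.00457; -0.14 with the length offset, edgeR adjusted p 0.354). SLBP was called in no comparison within a fraction or between fractions.

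ERI1 mRNA stood at 77.4, 75.3 and 69.8 CPM in CTRL, at 56.0, 63.1 and 59.7 CPM in IM 6h and at 48.1, 52.8 and 50.9 CPM in IM 18h. These 3 groups did not overlap. Its log2 fold change against CTRL was -0.32 at 6 h (SE 0.10, edgeR adjusted p 0.0393) and -0.55 at 18 h (SE 0.10, edgeR adjusted p 0.000168), under the fold threshold both times. Leaving out CTRL replicate 3 (-0.63) or IM 18h replicate 2 (-0.61) brought it past the threshold at 18 h. In nuclear RNA ERI1 was called: it stood at 59.3, 47.2 and 53.2 CPM in CTRL and at 37.1, 30.3 and 30.1 CPM in IM 18h (log2 fold change -0.71, SE 0.13, edgeR adjusted p 0.000105), a call lost without CTRL replicate 1 (-0.58).

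CASP8AP2, which encodes FLASH, was called in 3 of the 8 mRNA comparisons with CTRL. It stood at 50.5, 59.2 and 48.5 CPM in CTRL, at 83.1, 91.3 and 76.0 CPM in IM 18h, at 72.8, 99.3 and 98.2 CPM in KCl 1h and at 89.9, 85.4 and 76.6 CPM in KCl 3h. None of these treated groups overlapped CTRL, as was the case for 17.8% of all genes at KCl 1h and 30% at KCl 3h. Of the 6 factors, 3 did not overlap with CTRL at KCl 1h and 2 at KCl 3h. LSM10 lay below every CTRL library both times, and ERI1 above at KCl 1h. With KCl the log2 fold change was 0.77 at 1 h (SE 0.17, edgeR adjusted p 0.00431) and 0.67 at 3 h (SE 0.17, edgeR adjusted p 0.0066), and CASP8AP2 was the only one of the 6 factors called, beside 5.45% and 11.9% of all genes. At IM 18h it was 0.66 (SE 0.17, edgeR adjusted p 0.00281).

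These 3 calls differed in how far they rested on single libraries. The KCl 1h call held without any 1 of its 6 libraries, with log2 fold changes from 0.70 to 0.90. That at KCl 3h was lost without CTRL replicate 3 (0.596), and removing either IM 18h replicate 2 or the third CTRL library ended the one at IM 18h (0.57 both times). The libraries of KCl 1h replicates 2 and 3, which held the most counts, were also those with the highest CASP8AP2 level of that group. Between 1 and 3 h of KCl no factor was called without a replicate term, beside 3.29% of all genes, and CASP8AP2 differed by -0.10 on the log2 scale (95% interval -0.43 to 0.22).

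In nuclear RNA CASP8AP2 varied more between replicates than between groups. It stood at 77.7, 43.0 and 34.7 CPM in CTRL, at 92.1, 58.9 and 50.1 in IM 1h, at 106, 72.3 and 47.5 in IM 18h, at 77.8, 59.7 and 48.7 in JTE 1h and at 101, 55.6 and 43.8 CPM in KCl 1h. Replicate 1 was the highest and replicate 3 the lowest in all 5 groups, with ratios between them from 1.60 to 2.31. Without a replicate term no nuclear comparison called it, and the SE was 0.42 each time. The replicate numbers pair these nuclear libraries, and in a fit with that block the log2 fold changes were 0.40 (IM 1h, edgeR adjusted p 0.0113), 0.55 (IM 18h, edgeR adjusted p 3.17e-06), 0.32 (JTE 1h, edgeR adjusted p 0.00964) and 0.36 (KCl 1h, edgeR adjusted p 0.00146). All of them had the sign of a higher level and lay under the fold threshold, and they share the same 3 CTRL libraries.

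NPAT showed the same order of replicates. Its nuclear level was 70.6, 51.1 and 42.0 CPM in CTRL, 86.1, 64.8 and 60.5 in IM 1h, 83.0, 59.1 and 48.4 in IM 18h, 64.4, 54.5 and 47.3 in JTE 1h and 85.2, 60.7 and 52.4 CPM in KCl 1h, replicate 1 being the highest and replicate 3 the lowest each time. In mRNA, replicate 3 was the lowest NPAT library in 8 of 9 groups. What sets these libraries apart was not tested. The gene was called in none of the comparisons in the fit without a replicate term over all libraries. With the replicate block, nuclear NPAT differed by 0.38 in IM 1h (edgeR adjusted p 0.00358), 0.22 in IM 18h (edgeR adjusted p 0.0139) and 0.28 in KCl 1h (edgeR adjusted p 0.00317), all under the fold threshold.

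The lowest NPAT mRNA levels were those of JTE 1h, at 47.1, 43.1 and 21.9 CPM against 60.5, 65.6 and 44.7 CPM in CTRL. These groups overlapped, since CTRL replicate 3 lay within the JTE 1h range, and the log2 fold change of -0.61 did not pass the test (SE 0.23, edgeR adjusted p 0.378). The level was lower in each of the 3 same-number pairs. A fit with the replicate block called NPAT (-0.63, edgeR adjusted p 0.0203), but these numbers did not pair the mRNA libraries with CTRL. The paper's read totals number CTRL replicates 1 and 2 the other way round, so this pairing is uncertain. At JTE 6h NPAT stood at 72.1, 60.4 and 41.9 CPM. Between 1 and 6 h of JTE-607, whose libraries the replicate numbers pair, it differed by 0.64 (edgeR adjusted p 0.0722) and, with the block, by 0.65 with a call (edgeR adjusted p 0.0021). Without the block it was also called on leaving out JTE 1h replicate 1 (0.83, edgeR adjusted p 0.0377) or JTE 6h replicate 3 (0.83, edgeR adjusted p 0.0288). Between KCl 1h (66.3, 82.6 and 54.0 CPM) and KCl 3h (48.2, 46.2 and 33.0 CPM), also paired, the difference was -0.67 (edgeR adjusted p 0.108) and, with the block, -0.68 with a call (edgeR adjusted p 0.00314), as it was without the filter on low counts (-0.72). Each of the 3 replicates moved in the direction of the fold change in both of these comparisons. Of all 18095 genes, the block fit called 112 higher and 146 lower at JTE 1h. It called 1180 higher and 892 lower between JTE 1h and 6h, and 347 and 438 between KCl 1h and 3h. Without the filter, 476 of 40963 genes were called higher and 514 lower between KCl 1h and 3h.

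ATM, the DNA damage kinase encoded by the divergent neighbor of NPAT, was called higher at IM 6h (log2 fold change 0.80, edgeR adjusted p 0.0275) and IM 18h (56.1 ± 13.9 CPM in CTRL and 151 ± 11.3 CPM in IM 18h, SD, n = 3, with a log2 fold change of 1.43, edgeR adjusted p 7.74e-05) in mRNA and at IM 18h in nuclear RNA (log2 fold change 0.96, edgeR adjusted p 3.37e-05). NPAT at IM 18h had log2 fold changes of 0.31 in mRNA (95% interval -0.14 to 0.76) and 0.22 in nuclear RNA.

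Without a replicate term JTE-607 changed the mRNA of none of the 6 factors against CTRL enough for a call. The share of all genes called was 0.851% at 1 h, 13.2% at 6 h and 5.39% at 18 h in mRNA, and 8.52% at 1 h in nuclear RNA. The nearest was LSM11 at JTE 6h, at 37.6, 37.2 and 43.3 CPM, above every CTRL library (the 2 groups did not overlap for 29.9% of all genes) with a log2 fold change of 0.54 (SE 0.16, edgeR adjusted p 0.0183). It was called without CTRL replicate 2 (0.65) and was back at 28.1, 25.7 and 28.6 CPM in JTE 18h (log2 fold change between 6 and 18 h -0.52, edgeR adjusted p 0.0221, under the fold threshold). No factor was called between 1 and 6 h (9.23% of all genes) or between 6 and 18 h (13.4%) without the replicate block. LSM11 alone had an adjusted p under 0.05 in these 3 comparisons, as did 18.1% of all genes at JTE 6h, 13% between 1 and 6 h and 21.8% between 6 and 18 h. ERI1 also did not overlap with CTRL at JTE 6h or at JTE 18h (65.2, 62.6 and 66.9 CPM), with every library below those of CTRL. The share of all genes without overlap was not counted at JTE 18h. At JTE 18h all log2 fold changes against CTRL lay between -0.19 and 0.12.

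The direct comparison of the compounds at matched times used no CTRL library. At 6 h no factor was called, beside 23.8% of all genes. LSM10 was lower with imatinib by -0.34 (edgeR adjusted p 0.036) and SLBP by -0.29 (edgeR adjusted p 0.0175) on the log2 scale, both under the fold threshold (34.8% of all genes had an adjusted p under 0.05). Without IM 6h replicate 3 the LSM10 difference was -0.19 (edgeR adjusted p 0.269), and with scaling by library totals only it was -0.21 and that of SLBP -0.16. LSM11 differed by 0.09 (95% interval -0.22 to 0.40). At 18 h, 3 factors were called beside 30.3% of all genes, and 5 had an adjusted p under 0.05 beside 44.2%. LSM10 was lower with imatinib (log2 fold change -1.03, SE 0.13, edgeR adjusted p 1.08e-06), LSM11 higher (0.95, SE 0.16, edgeR adjusted p 5.1e-05) and CASP8AP2 higher (0.63, SE 0.17, edgeR adjusted p 0.00441). The CASP8AP2 call was lost without IM 18h replicate 2 (0.54) or JTE 18h replicate 2 (0.53) or 3 (0.55), with library totals only or only the 2 groups (0.59 each), and without the filter on low counts (0.55). ERI1 (-0.36, edgeR adjusted p 0.00743) and SLBP (-0.23, edgeR adjusted p 0.0474) were lower with imatinib without reaching the fold threshold, and the SLBP difference shrank to -0.08 (edgeR adjusted p 0.5) with an offset for exon length. The compounds were used at different doses, each at 1 dose only.

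**Figure D3:**
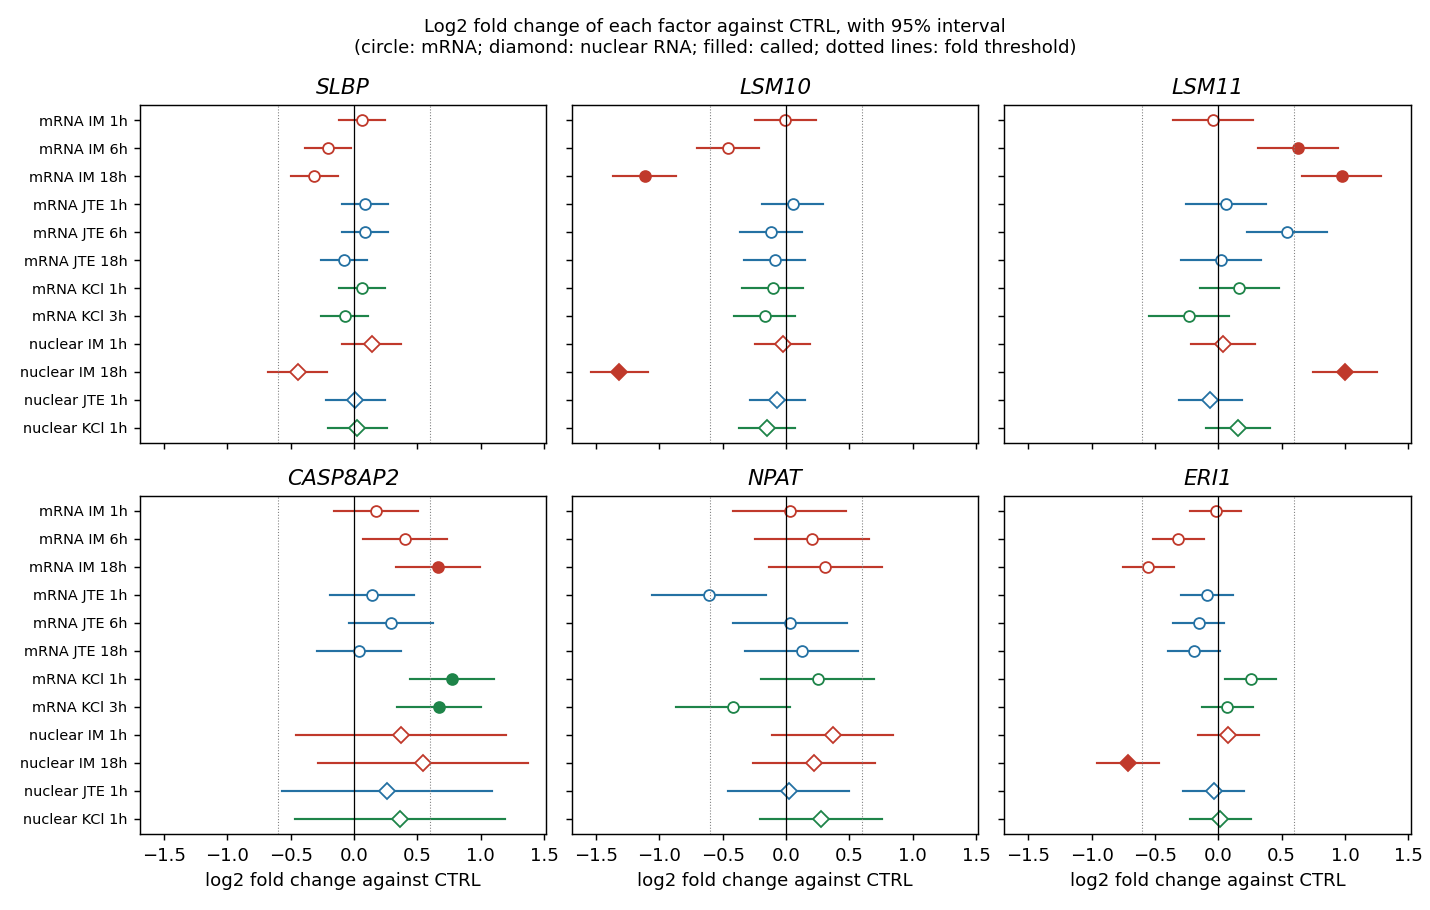
Log2 fold change of each factor against CTRL (x axis) in the 8 mRNA comparisons (circles) and the 4 nuclear comparisons (diamonds), with 95% intervals as lines, filled symbols for calls and dotted lines at the fold threshold of 0.6. The filled symbols below 0 are LSM10 at IM 18h in both fractions and ERI1 at IM 18h in nuclear RNA; the intervals of CASP8AP2 and NPAT are the widest.

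The responses in the 2 fractions were compared directly, as the nuclear minus the mRNA log2 fold change. Without a replicate term no factor was called for IM 1h, IM 18h, JTE 1h or KCl 1h, and none reached an unadjusted p under 0.05 in any of them. Over all genes 0%, 0.0901%, 0.0605% and 0.668% were called. At IM 18h the differences were small for LSM10 (-0.15, 95% interval -0.51 to 0.22), LSM11 (0.08, -0.42 to 0.58), ERI1 (-0.11, -0.44 to 0.22) and SLBP (-0.08, -0.39 to 0.24), and wider for CASP8AP2 (-0.07, -0.94 to 0.81) and NPAT (-0.03, -0.64 to 0.58). The interval of CASP8AP2 reaches beyond the fold threshold in both directions and that of NPAT in the negative direction. In a fit with the replicate block no factor was called either. The block used the replicate numbers in both fractions, although they did not pair the mRNA libraries with CTRL, so its SEs are uncertain. Without it the SE was 0.45 for CASP8AP2 at IM 18h and 0.40 for NPAT at JTE 1h. The block fit gave nuclear minus mRNA differences of -0.06 for CASP8AP2 at IM 18h (SE 0.14), 0.72 for NPAT at JTE 1h (SE 0.16, edgeR adjusted p 0.144), -0.51 for CASP8AP2 at KCl 1h (SE 0.12, edgeR adjusted p 0.0577) and -0.34 for ERI1 at KCl 1h (SE 0.11, edgeR adjusted p 0.147). No factor was called in KCl 1h nuclear RNA, beside 23.8% of all genes.

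Exon length moved with the imatinib response at 18 h, and single libraries of other groups reached similar values. The median deviation of genes with at least 6000 exon bases minus that of genes with at most 2000 bases (mean CPM of at least 10) ran from -0.06 to 0.03 in mRNA CTRL and from 0.10 to 0.14 in IM 18h, and from -0.17 to 0.01 in nuclear CTRL and from 0.06 to 0.29 in IM 18h. In mRNA it ran from -0.07 to 0.17 in IM 6h, from -0.02 to 0.17 in KCl 1h and from -0.05 to 0.12 in JTE 18h. In nuclear RNA it reached 0.09 in KCl 1h and 0.08 in JTE 1h. The short factors were lower and the long LSM11 and CASP8AP2 higher at 18 h, but the long ERI1 was lower. With a length trend per library as an offset, chosen after seeing these values, LSM10 kept its calls (-0.90 in mRNA, edgeR adjusted p 9.19e-07; -1.01 in nuclear RNA, edgeR adjusted p 1.1e-07). LSM11 kept them at IM 18h (1.05 in mRNA and 1.11 in nuclear RNA), as did CASP8AP2 in IM 18h, KCl 1h and KCl 3h mRNA (0.68, 0.71 and 0.67). The SLBP difference at 18 h shrank to -0.07 in mRNA (edgeR adjusted p 0.512) and -0.14 in nuclear RNA (edgeR adjusted p 0.354). ERI1 became -0.47 in mRNA and, below the fold threshold, -0.58 in nuclear RNA (edgeR adjusted p 0.000224), and the LSM10 difference between 6 and 18 h became -0.51 without a call.

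**Figure D4:**
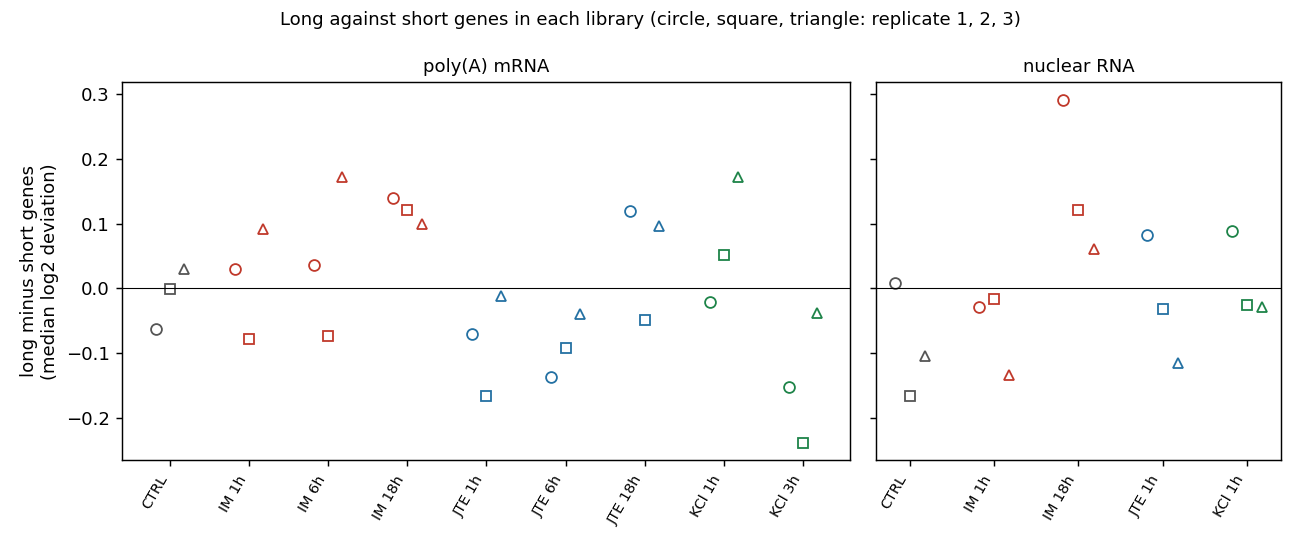
Long against short genes in each library (y axis, median log2 deviation of genes with at least 6000 exon bases minus that of genes with at most 2000 bases) by group (x axis) for poly(A) mRNA (left) and nuclear RNA (right), with a circle, square or triangle for replicates 1, 2 and 3. The IM 18h libraries lie from 0.10 to 0.14 in mRNA and from 0.06 to 0.29 in nuclear RNA, above all CTRL libraries of their fraction.

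The other proteins of the pathway were read from lists. Of the 5 Sm proteins that complete the U7 ring and also serve in the spliceosome, 2 fell in IM 18h mRNA, SNRPE (log2 fold change -0.63, edgeR adjusted p 0.00254) and SNRPB (-0.65, edgeR adjusted p 3.14e-05). In nuclear RNA 3 fell, SNRPB (-0.78), SNRPE (-0.77) and SNRPG (-0.71). The median log2 fold change of the 5 was -0.57 in mRNA and -0.71 in nuclear RNA, against 0.04 and 0 over all genes tested, of which 13.2% and 15.4% were called lower. With the length offset these genes stayed lower but under the fold threshold, at -0.42 and -0.47 for SNRPE and SNRPB in mRNA and at -0.46, -0.48 and -0.41 for SNRPE, SNRPB and SNRPG in nuclear RNA. These Sm genes have processed copies elsewhere in the genome, and only uniquely mapped reads were counted, so their levels are uncertain. LSM11 was thus the ring gene with a call in the other direction at that time.

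Of the 4 genes of the histone cleavage complex (CPSF2, CPSF3, SYMPK and CSTF2), only CSTF2, the RNA-binding CstF subunit of 64 kDa, was called. It fell at IM 18h in mRNA, with 55.7 ± 0.433 CPM in CTRL and 33.1 ± 4.59 CPM in IM 18h (SD, n = 3; log2 scale -0.75, edgeR adjusted p 4.02e-06) and by 0.82 on the log2 scale in nuclear RNA (edgeR adjusted p 1.51e-06), and with the length offset by 0.52 in both. CPSF3, the target of JTE-607, was called in no comparison with CTRL. The list median was -0.15 in IM 18h mRNA and -0.28 in nuclear RNA, against 0.04 and 0 over all genes. Of all genes, 13.2% and 15.4% were called lower there.

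Among the 7 auxiliary factors, ZNF473 (ZFP100), a zinc finger protein that links SLBP to the U7 particle, fell at IM 6h (log2 fold change -0.85, edgeR adjusted p 0.0022) and at IM 18h in mRNA (-0.89, edgeR adjusted p 0.000379) and nuclear RNA (-0.78, edgeR adjusted p 1.03e-05). Its nuclear level went from 73.3 ± 2.90 CPM in CTRL to 42.5 ± 1.79 CPM in IM 18h (SD, n = 3). SRRT (ARS2), which joins the cap-binding complex to RNA processing, fell in IM 18h mRNA (-0.82, edgeR adjusted p 0.00126). JTE 18h instead lowered NELFE, a subunit of the negative elongation factor (-1.26, edgeR adjusted p 2.48e-07), and MIF4GD (SLIP1), which connects SLBP to translation (-0.89, edgeR adjusted p 0.0269). The 2 fell to 35.7 and 6.48 CPM from 85.7 and 12.02 CPM. Over all genes 4.12% were called lower at IM 6h, 13.2% in IM 18h mRNA, 15.4% in IM 18h nuclear RNA and 2.09% at JTE 18h.

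Of the 12 genes of histone mRNA decay, 2 rose in IM 18h mRNA, a share near the 17.2% of all genes called higher there. The exonuclease XRN1 stood at 57.0 ± 15.9 CPM in CTRL and at 139 ± 17.1 CPM in IM 18h (SD, n = 3, a log2 fold change of 1.29, edgeR adjusted p 7.36e-05) and the decapping enzyme DCP2 from 181 ± 34.9 to 279 ± 41.1 CPM (0.62, edgeR adjusted p 0.00621). XRN1 also rose in nuclear RNA (1.04, edgeR adjusted p 6.3e-05), where 17.2% of all genes were called higher. The list median was -0.17 in mRNA.

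The cell cycle genes gave few calls. Of the 14 S phase genes, 0 were called in IM 18h in either fraction, beside 30.5% of all genes in mRNA and 32.6% in nuclear RNA. Their median log2 fold change was -0.07 in mRNA and -0.16 in nuclear RNA, against 0.04 and 0 over all genes. Of the 6 cell cycle regulators 0 were called there as well. Among all comparisons with CTRL these lists held 2 calls, both in JTE 6h mRNA, where 13.2% of all genes were called. RRM2, a subunit of ribonucleotide reductase, fell (log2 fold change -0.85, edgeR adjusted p 0.000249) and CCNE2, cyclin E2, rose (0.88, edgeR adjusted p 0.00055).

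The histone genes themselves were counted in both fractions, and their readout depends on the selection: the mRNA libraries took transcripts with a poly(A) tail, the nuclear libraries did not. Their summed level lay between 1164 and 1930 CPM in mRNA CTRL and between 10388 and 12154 CPM in nuclear CTRL. In mRNA, 16 of 42 tested histone genes were called higher and 0 lower at IM 18h, and 19 of 42 higher and 0 lower at JTE 18h, when none of SLBP, LSM10, LSM11, CASP8AP2, NPAT and ERI1 was called. Over all genes 17.2% were called higher and 13.2% lower at IM 18h, and 3.29% higher and 2.09% lower at JTE 18h. In nuclear RNA at IM 18h, 1 of 51 was called higher and 11 lower, beside 17.2% higher and 15.4% lower over all genes. The median log2 fold change at IM 18h was 0.60 in mRNA and -0.30 in nuclear RNA.

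The difference between the fractions at IM 18h was called for 3 histone genes, those whose stem-loops are printed above, and they were picked after their values were seen. H2AC8 went from 4.67 ± 0.562 to 10.3 ± 2.27 CPM in mRNA and from 336 ± 33.3 to 266 ± 34.0 CPM in nuclear RNA (SD, n = 3, nuclear minus mRNA log2 fold change -1.42, edgeR adjusted p 0.00775). H2BC9 differed by -1.38 and H2BC26 by -1.43 (edgeR adjusted p 0.0443 for both). In mRNA their levels were low, at most 4.71 CPM in a CTRL library of H2BC9 and 1.76 CPM in one of H2BC26. Many histone genes are close copies of each other, so counts of unique reads are uncertain for single members.

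Over the 9 mRNA group means, which share libraries and depth within a group, the patterns of the factors were compared by Pearson's r of log2(CPM + 0.5) as a description. SLBP and LSM10 were most alike (r = 0.89), followed by LSM10 and ERI1 (r = 0.78) and SLBP and ERI1 (r = 0.75), and LSM11 ran opposite to LSM10 (r = -0.82) and ERI1 (r = -0.77). CASP8AP2 and NPAT, whose nuclear libraries share the order of replicates, had r = 0.23 over the mRNA groups. Among 8719 other genes the most similar patterns were those of ESRRB, EMC7 and CBFB for LSM10 (r = 0.99 each) and of CBFA2T2, SMAD4 and DCAF12 for LSM11 (r from 0.97 to 0.98). For SLBP they were ARHGEF7, DPH7 and POLR1F (r = 0.98 each), for CASP8AP2 CEP350 (r = 0.98) and TARBP1 (r = 0.96), for NPAT ZNF292, PHC3 and REST (r from 0.94 to 0.95) and for ERI1 LCLAT1, ZNF746 and PKD1P6 (r = 0.97 each).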

How the data were processed

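RNA-seq of K562 cells was analyzed from the deposited raw counts of read pairs per gene. Per the paper's methods, the authors trimmed and deduplicated reads with fastp, aligned them to hg38 with STAR, kept unique mappers with introns of at most 10000 bases, and counted exons with featureCounts without a strand option; the annotation release is not given in the sources used here. Unique mapping lowers the counts of genes with near-identical copies. Long introns bear on CASP8AP2, NPAT and ERI1, whose merged exons leave 1, 2 and 4 gaps over 10000 bases. Duplicate removal without molecular identifiers can lower abundant transcripts.

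The test was the robust quasi-likelihood F-test of edgeR 4.0.16 (R 4.3.3) after TMM scaling and filterByExpr. It was fitted once per fraction with a term for each group, over 18095 genes in mRNA and 21929 in nuclear RNA. Standard errors come from the F statistic and 95% intervals from 1.96 SE. CPM are TMM-scaled. Fractions were compared by an interaction in 12 libraries. The 3 libraries of a group are biological replicates per the paper, and no pair agreed within sampling noise. Depth limits only counts near 0. The p-values rest on the spread between libraries within groups, estimated per gene over all groups in the fit and moderated across genes. The fit was tested on simulated data that had the same dispersion for every gene and no replicate effect. That test does not cover genes with large differences between replicates, such as CASP8AP2 and NPAT.

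The 6 factors and the gene lists were chosen with earlier results of these data known. Fold changes are given for factors with an adjusted p under 0.05, for called genes of the U7 ring and cleavage complex lists, and for the 2 largest rises and falls of the other lists (histones left out) in each comparison with CTRL; values of other factors and the 3 histone genes were picked after they were seen. The 3 most similar genes per factor had a mean CPM of at least 10. A few markers and similar genes are not reported here. Replicate numbers from the titles were taken to pair libraries where every same-number correlation of deviations from group means exceeded 0.1. This held for the 4 nuclear comparisons with CTRL (from 0.235 to 0.891) and in mRNA for IM 6h with 1h, JTE 6h with 1h, JTE 18h with 6h, KCl 3h with 1h, and IM 6h with JTE 6h. In the paper's mRNA read statistics CTRL replicates 1 and 2 have 19031221 and 18333127 reads, the reverse of the numbering used here. Whether the 2 numbers are exchanged was not tested. The alternatives covered DESeq2 1.42.0, RLE, upper quartile and library total scaling, no filter, no fold threshold, fits of 2 groups, a replicate block, leaving out each library, Spearman's rho, levels without length and, chosen after seeing the data, an offset for exon length. Sequences were read from hg38 at GENCODE 44 positions.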

Additional observations from a re-analysis of the deposited data

How the results depend on the processing

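The log2 fold changes of factors with an adjusted p under 0.05 gave 405 values under all alternatives. Of these 0 changed direction, 366 kept their side of the call, 22 lost it and 17 gained it, 13 of the latter because the fold threshold was dropped. LSM10 and LSM11 at IM 18h in both fractions, both against JTE 18h, and CASP8AP2 at KCl 1h kept their calls under every one of 15 alternatives each. Without the fold threshold 3 factors were called at IM 6h, 5 at IM 18h, 1 at JTE 6h, 2 between IM 1h and 6h, 1 between JTE 1h and 6h, 1 between JTE 6h and 18h, 2 between IM and JTE at 6 h and 5 at 18 h. Without the filter on low counts 0 were called at IM 6h and 1 between KCl 1h and 3h, and CASP8AP2 lost its call at IM 18h. Of all 40963 genes tested without the filter, 1047 were called higher and 1032 lower at IM 6h. Between KCl 1h and 3h, 476 were called higher and 514 lower. With the exon length offset, 0 were called between IM 6h and 18h. Leaving out single libraries gave from 0 to 1 called factors at IM 6h, JTE 6h and KCl 3h, between IM 1h and 6h, IM 6h and 18h, and JTE 1h and 6h. ERI1 in nuclear IM 18h fell below the fold threshold with upper quartile scaling (-0.59), which moved the median of all genes to 0.12 and the calls from 3777 higher and 3375 lower to 4580 and 2587. The cause of these shifts was not tested.

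With the replicate block, 1 factor (NPAT) was called at JTE 1h in mRNA, 1 between JTE 1h and 6h and 1 between KCl 1h and 3h. Of all 18095 genes, the block fit called 112 higher and 146 lower at JTE 1h. It called 1180 higher and 892 lower between JTE 1h and 6h, and 347 and 438 between KCl 1h and 3h. With 6 factors no more is read from these counts. The JTE 1h value was -0.63 (edgeR adjusted p 0.0203), but the numbers did not pair mRNA libraries with CTRL (correlations from -0.37 to 0.88). The numbering of CTRL replicates 1 and 2 differs between sources, so the pairing with CTRL is uncertain. The block changed no other call of a factor. By Spearman's rho CBFA2T2 stayed among the 3 genes most like LSM11 and ZNF292 among those most like NPAT, while 16 of the 18 similar genes left the first 3. In a ranking by CPM with no length, LSM10 moved from the second place in both fractions. Every factor had at least 234 counts in each library. U7 snRNA had 0, and whether depth or capture limits it was not tested.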
